A study of Homo sapiens with 4 samples.

Results

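The genes described here are 37 genes of the lysosome: acid hydrolases, among them 10 cathepsins, lysosomal membrane proteins, 2 transcription factors that control lysosomal genes, and an autophagy receptor. They were chosen by symbol, with 1 FPKM or more required in at least 1 of the 2 columns used. FPKM counts sequenced fragments relative to transcript length and to library size, so levels can be compared between genes. All 37 met the requirement, among 14319 of 63651 rows of the table that did so. Only CTSH lay close to the threshold, at 1.08 FPKM induced and 0.392 FPKM uninduced, and no listed gene fell below it.

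The cells were clonal lines with doxycycline-inducible FOXA2, made from BJ-5ta, human foreskin fibroblasts immortalised with telomerase; the labels do not give the number of clones used or the length of induction, and the header of the induced column holds the tag 4D without explaining it. FOXA2 is a forkhead transcription factor of endoderm and liver. The labels give 2 induced samples, treated with 0.5 µg/ml doxycycline, and 2 uninduced samples without it; both carried the transgene and grew in the same medium with hygromycin B, bFGF and puromycin. An overnight mimosine arrest in G1 is also described, without saying which cultures received it, and no sample with doxycycline but without the transgene was analysed here. The table used has 1 column per group with 1 value and 1 deposited interval per gene, so the comparison of induced with uninduced cells has no replicate check, and no SD, n or p-value is given.

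Lysosomes break down proteins, glycans, lipids and glycogen that reach them by endocytosis or autophagy. Soluble hydrolases are made as precursors, tagged with mannose 6-phosphate in the Golgi and sorted to an acid compartment whose membrane is lined by heavily glycosylated proteins. TFEB and TFE3, together with MITF and TFEC the MiT/TFE family, bind E-box sequences near many lysosomal genes, and the nutrient-sensing kinase complex at the lysosome holds them in the cytoplasm when amino acids are plentiful. Fibroblasts depend on lysosomal proteases to turn over collagen and other matrix that they take up.

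A gene is said to have risen or fallen only where its deposited intervals in the induced and the uninduced column do not overlap. The level of these intervals is not stated, and they were wide: for these genes the median distance of the upper bound from the value was 65.2% of the value induced and 72.6% uninduced. FOXA2 rose, at 104 FPKM (interval 50.2 to 158) induced and 4.82 FPKM (0.526 to 9.12) uninduced, with transgene and native transcripts not separated. All 14 fibroblast markers were above the filter, with 0 called and a median log2 difference of -0.37. They were spread from -2.06 to 1.83: 3 were at least 2-fold higher and 3 at least 2-fold lower, beside 9.2% and 6.03% of all rows above the filter. The most abundant were FN1 (2111 FPKM induced, 863 FPKM uninduced), VIM (905 induced, 2098 uninduced), COL1A2 (519 induced, 756 uninduced) and COL1A1 (498 induced, 754 uninduced). Of 16 macrophage markers 14 were under 1 FPKM in both columns and 8 were listed at 0 in both. In bulk RNA, fewer cells of a type and less RNA per cell cannot be told apart.

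Of the 37 lysosomal genes 3 rose after induction and 0 fell. The 3 were CTSK, the collagen-degrading cathepsin K known from osteoclasts, LGMN, the asparaginyl endopeptidase legumain, and GPNMB, a glycoprotein of melanosomes and lysosomes. Over all kept rows 0.726% rose and 0.454% fell. Differences are given as log2(FPKM + 1), induced minus uninduced; adding 1 makes the fold of weakly expressed genes look smaller than it was. On that scale 15 of the 37 were at least 2-fold higher induced, beside 9.2% of all kept rows, and 0 were at least 2-fold lower, beside 6.03%. The induced value was the higher one for 30 genes, beside 53.7% of all kept rows, and the lower one for 7. CTSH, among the 30, passed the filter only through its induced value, which fixed its direction. At a 1.5-fold threshold 21 were higher and 3 lower, beside 20.3% and 15.3% of all kept rows. The median difference was 0.89 for the 37 genes and 0.05 for all kept rows. These genes were chosen with results of these data known, so the counts describe them and do not test them.

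**Figure D1:**
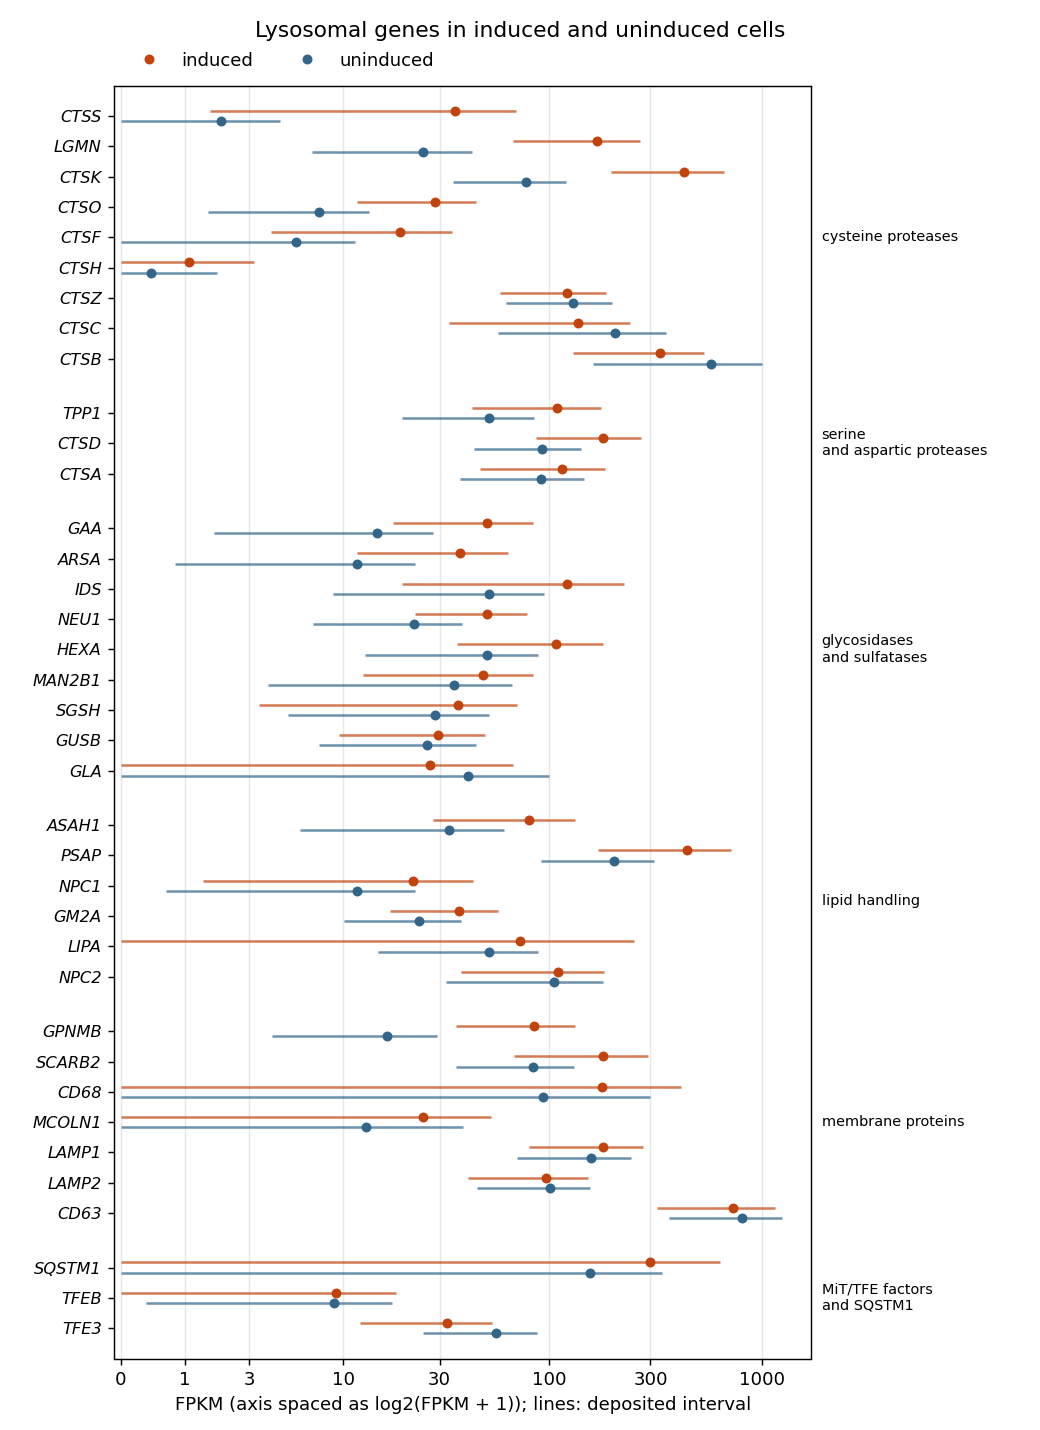
FPKM of each lysosomal gene induced (red, upper point) and uninduced (blue, lower point), grouped by role, on an axis spaced as log2(FPKM + 1); lines are the deposited intervals. The intervals are apart for LGMN, CTSK and GPNMB, and they overlap for the other 34 genes.

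In this table highly expressed genes were more often lower in the induced column, and most of the lysosomal genes are highly expressed. Among 4280 kept rows with a mean of 30 FPKM or more, 36.3% had a higher induced value, 5.68% were at least 2-fold higher, 7.22% at least 2-fold lower, and the median was -0.19. Of the 28 lysosomal genes at that level, 11 were at least 2-fold higher and 0 lower, with a median of 0.76. The 3 genes that rose are all at that level, where 1.47% of rows rose and 0.864% fell. Between 30 and 100 FPKM the median was 1.05 for 15 lysosomal genes and -0.13 for 3291 rows. Between 100 and 300 FPKM it was 0.62 for 10 lysosomal genes and -0.34 for 774 rows. The 3 genes at 300 FPKM or more, CD63, CTSB and PSAP, had a median of -0.13, against -0.68 for 215 rows.

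**Figure D2:**
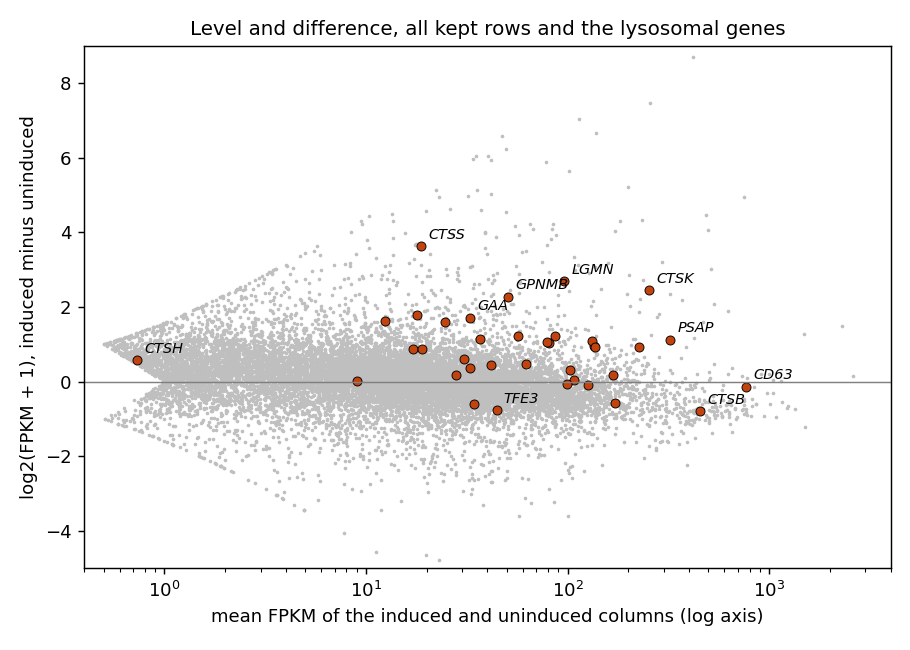
Log2(FPKM + 1), induced minus uninduced, against the mean FPKM of both columns (log axis) for all 14319 kept rows (grey; 1 row lies outside the axes) and the 37 lysosomal genes (red). Most red points lie above 0, with CTSS, LGMN, CTSK and GPNMB highest and CTSB lowest.

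The promoters of these genes are shown because many lysosomal genes carry the MiT/TFE site, the E-box CACGTG, in a longer form TCACGTGA. RefSeq promoters (GRCh38.p14) were matched by symbol for 26 of the 37 genes, and the 250 bases before the start were searched on both strands. The genes with no entry were ARSA, ASAH1, CTSB, CTSK, CTSO, CTSS, HEXA, LAMP2, LGMN, PSAP and SGSH. CACGTG was present in 8 of 26 (30.8%), beside 6.49% of all 27305 promoters: in CTSA, CTSD, CTSF, NEU1, GAA, LAMP1, CD63 and MCOLN1. TCACGTGA, which contains CACGTG, was present in 4 (15.4%, beside 0.89%): CTSA, GAA, LAMP1 and MCOLN1. The related M-box TCATGTGA was present in 3 (11.5%, beside 0.864%): GPNMB, TPP1 and CD63. Its core CATGTG, whatever the flanking bases, was present in 6 (23.1%, beside 9.54%), GPNMB, TPP1 and CD63 among them. Of forkhead core sequences, TGTTTAC was present in CTSF only (3.85%, beside 2.98%) and TGTTTGC in CTSD and SQSTM1 (7.69%, beside 3.19%). The M-box search was added after the GPNMB promoter had been read. In other lists described below CACGTG was as frequent in genes of nutrient sensing (35.3%) and of tagging and sorting (33.3%). It was less frequent in V-ATPase genes (25%), other membrane proteins (20%), other lysosomal hydrolases (17.4%) and autophagy genes (5.56%). A share of this size is thus not particular to the genes described here.

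Below, 6 promoters are printed in the direction of the gene, ending at the base before the start. They show the only gene of the 3 that rose with an entry (GPNMB), genes with CACGTG and an induced value above the uninduced one (GAA, CTSF, MCOLN1, CTSD), and the one with most copies of CACGTG, LAMP1. Capitals mark the E-box, the M-box core, which appears as CACATG when read from the opposite strand, and the forkhead cores, which appear as GTAAACA in CTSF and as GCAAACA in CTSD for the same reason. The windows are chr7:23246525-23246774 on the plus strand for GPNMB, chr17:80101331-80101580 on the plus strand for GAA and chr11:66568607-66568856 on the minus strand for CTSF. They are chr19:7522374-7522623 on the plus strand for MCOLN1, chr11:1763928-1764177 on the minus strand for CTSD and chr13:113296989-113297238 on the plus strand for LAMP1.
GPNMB: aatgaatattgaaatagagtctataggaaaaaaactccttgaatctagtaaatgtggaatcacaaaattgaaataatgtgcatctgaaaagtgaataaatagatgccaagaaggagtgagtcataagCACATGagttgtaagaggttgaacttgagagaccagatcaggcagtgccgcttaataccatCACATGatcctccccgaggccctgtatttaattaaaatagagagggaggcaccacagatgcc
GAA: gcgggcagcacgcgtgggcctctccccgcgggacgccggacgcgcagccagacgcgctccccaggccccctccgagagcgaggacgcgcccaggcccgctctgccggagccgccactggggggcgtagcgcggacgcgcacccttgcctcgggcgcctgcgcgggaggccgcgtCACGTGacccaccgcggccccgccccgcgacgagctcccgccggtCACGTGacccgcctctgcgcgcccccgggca
CTSF: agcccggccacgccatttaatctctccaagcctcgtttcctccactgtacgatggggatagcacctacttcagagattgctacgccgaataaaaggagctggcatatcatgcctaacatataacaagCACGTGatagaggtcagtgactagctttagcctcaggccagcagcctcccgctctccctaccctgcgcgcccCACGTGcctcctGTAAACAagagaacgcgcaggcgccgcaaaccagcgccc
MCOLN1: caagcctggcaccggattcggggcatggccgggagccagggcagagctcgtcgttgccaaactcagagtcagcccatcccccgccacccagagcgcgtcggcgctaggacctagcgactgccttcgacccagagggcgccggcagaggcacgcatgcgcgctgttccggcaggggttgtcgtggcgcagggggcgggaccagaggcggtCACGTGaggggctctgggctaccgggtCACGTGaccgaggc
CTSD: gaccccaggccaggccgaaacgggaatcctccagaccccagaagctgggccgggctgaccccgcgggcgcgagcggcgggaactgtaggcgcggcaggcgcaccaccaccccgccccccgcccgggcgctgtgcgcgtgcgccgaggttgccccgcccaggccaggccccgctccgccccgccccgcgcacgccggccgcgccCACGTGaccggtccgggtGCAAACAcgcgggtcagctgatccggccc
LAMP1: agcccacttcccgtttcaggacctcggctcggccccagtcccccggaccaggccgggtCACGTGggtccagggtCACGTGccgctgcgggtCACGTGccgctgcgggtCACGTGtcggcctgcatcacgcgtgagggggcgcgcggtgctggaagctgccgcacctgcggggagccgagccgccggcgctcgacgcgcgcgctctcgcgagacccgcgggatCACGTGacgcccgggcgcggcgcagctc

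Among the genes printed, which were picked for what they show, LAMP1 has 5 copies of CACGTG and differed by 0.19, GAA has 2 copies and differed by 1.72, and GPNMB has 0 copies and differed by 2.28. The GPNMB window is also the most AT-rich of the 6, with 38.8% G and C against 81.2% in GAA. The 8 genes with CACGTG had a median difference of 0.92 and the 18 others with a promoter entry 0.53, with ranges that overlapped (-0.13 to 1.72 and -0.76 to 2.28). The 11 genes without an entry, CTSS, LGMN and CTSK among them, had a median of 1.24, so the promoters searched leave out much of what differed most. A match of letters does not show that a factor binds.

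Of the 9 cysteine proteases 2 rose, CTSK and LGMN, and 0 fell. A higher induced value was seen for 6 and a lower one for 3. The 6 include CTSH, which passed the filter only through its induced value. Of the 5 at 30 FPKM or more, 2 were higher and 3 lower. The median of those 5 was -0.10, beside -0.19 for all rows at that level. CTSK (ENSG00000143387; chromosome 1, 150768684 to 150780799, hg19) was at 429.8 FPKM (interval 196 to 664) induced and 77.6 FPKM (34.8 to 120.4) uninduced. The ratio was 5.54, or 1.63 between the nearest bounds, and the log2 difference 2.45. LGMN (ENSG00000100600; chromosome 14, 93170152 to 93215047), which cleaves after asparagine and helps to mature other cathepsins, was at 168 FPKM (67.6 to 267) induced and 25.0 FPKM (6.87 to 43.2) uninduced (coordinates in hg19). Its ratio was 6.69, or 1.56 between the nearest bounds. Neither locus span overlaps another kept row.

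CTSS, cathepsin S, which trims the invariant chain of MHC class II and is known to respond to interferon gamma, had the highest difference of the 37 without having risen. It was at 35.5 FPKM (interval 1.62 to 69.3) induced and 1.95 FPKM (0 to 4.57) uninduced, a log2 difference of 3.63 that ranked 55th of all kept rows. The ratio was 18.2, with a wide induced interval that reached below the upper uninduced bound. CTSO was at 28.4 FPKM (11.7 to 45.1) induced and 7.48 FPKM (1.54 to 13.4) uninduced, a near miss by the same criterion. CTSF, a cathepsin mutated in an adult form of neuronal ceroid lipofuscinosis, was at 19.3 FPKM (4.05 to 34.6) induced and 5.61 FPKM (0 to 11.5) uninduced. CTSH, an aminopeptidase, was barely detected, as given above.

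CTSB, CTSC and CTSZ, all abundant, had lower or nearly equal induced values, with overlapping intervals. CTSB, cathepsin B, was at 332 FPKM (interval 130.1 to 534) induced and 578 FPKM (161 to 995) uninduced, a log2 difference of -0.80. CTSC, the dipeptidyl peptidase that activates serine proteases of leukocyte granules, was at 137 FPKM (33.2 to 241) induced and 205 FPKM (57.4 to 353) uninduced. CTSZ, a carboxypeptidase, was at 122 FPKM (58.2 to 185) induced and 130.2 FPKM (62.6 to 198) uninduced. The direction for CTSZ turned to 0.10 with the columns scaled to the same FPKM sum and to 0.14 after quantile normalization.

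The cathepsin transcripts differed in make-up. The 10 cathepsins summed to 1399 FPKM induced and 1190.4 FPKM uninduced. CTSK made up 30.7% of that sum induced and 6.52% uninduced, and CTSB 23.7% induced and 48.5% uninduced. CTSK was the most abundant cathepsin transcript of the 10 in the induced column, and CTSB in the uninduced one. Neither lead was clear. The intervals of CTSK and CTSB overlapped in the induced column. In the uninduced column that of CTSB (161 to 995 FPKM) overlapped those of CTSC (57.4 to 353 FPKM) and CTSZ (62.6 to 198 FPKM). CTSS made up 2.53% induced and 0.164% uninduced. CTSL, cathepsin L, is not among the 37 genes and was at 226 FPKM induced and 261 FPKM uninduced. With it in the sum, a choice made after its values were seen, CTSK made up 26.5% induced and 5.34% uninduced, and CTSB 20.4% induced and 39.8% uninduced.

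**Figure D3:**
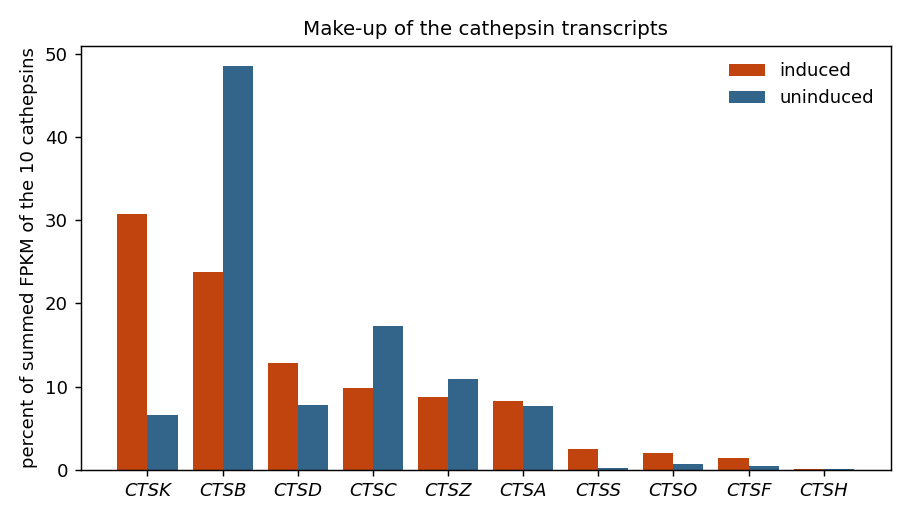
Percent of the summed FPKM of the 10 cathepsins held by each, induced (red, left bar) and uninduced (blue, right bar). CTSK holds 30.7% induced and 6.52% uninduced; CTSB holds 23.7% induced and 48.5% uninduced.

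All 3 proteases of other catalytic types had higher induced values, and 0 of them rose. CTSD, the aspartic protease cathepsin D, was at 179 FPKM (interval 86.5 to 272) induced and 92.2 FPKM (43.7 to 141) uninduced. TPP1, the tripeptidyl peptidase lost in a form of Batten disease, was at 109 FPKM (43.2 to 175) induced and 52.1 FPKM (19.6 to 84.6) uninduced. CTSA, a serine carboxypeptidase that also shields beta-galactosidase and neuraminidase from degradation, was at 115 FPKM (46.7 to 183) induced and 91.8 FPKM (37.6 to 146) uninduced. The log2 differences were 0.95 for CTSD, 1.05 for TPP1 and 0.32 for CTSA.

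Among the 9 glycosidases and sulfatases 8 had higher induced values, 5 of them at least 2-fold, and 0 rose. GAA, the glycogen-degrading alpha-glucosidase deficient in Pompe disease, came closest: 51.0 FPKM (interval 17.8 to 84.2) induced and 14.8 FPKM (1.73 to 27.8) uninduced. ARSA, which removes sulfate from sulfatide, was at 37.6 FPKM (11.8 to 63.5) induced and 11.7 FPKM (0.795 to 22.7) uninduced. The ratios were 3.45 for GAA and 3.21 for ARSA. By a looser criterion, an interval of the difference that leaves out 0, GAA and CTSO are called as well, which makes 5 of the 37, beside 1.26% of all kept rows; for ARSA that interval ran from -2.18 to 54.0 FPKM.

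The other 3 of these enzymes past 2-fold had overlapping intervals. IDS, the iduronate sulfatase deficient in Hunter syndrome, was at 122 FPKM (interval 19.7 to 224) induced and 51.9 FPKM (8.88 to 94.8) uninduced. NEU1, the lysosomal neuraminidase, was at 50.7 FPKM (22.7 to 78.8) induced and 22.6 FPKM (6.90 to 38.3) uninduced. HEXA, the alpha subunit of beta-hexosaminidase and the Tay-Sachs gene, was at 108 FPKM (36.3 to 179) induced and 50.6 FPKM (12.9 to 88.2) uninduced, and its locus span is shared with PARP6 (35.5 FPKM induced, 13.9 FPKM uninduced). GLB1, the beta-galactosidase bound to CTSA and NEU1, was at 60.5 FPKM induced and 45.5 FPKM uninduced; it was picked after its values had been seen.

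The remaining glycosidases and sulfatases lay within 0.60 of 0. MAN2B1, the acid alpha-mannosidase, was at 48.3 FPKM (interval 12.6 to 84.1) induced and 35.2 FPKM (3.86 to 66.6) uninduced. SGSH, the heparan sulfamidase deficient in Sanfilippo syndrome, was at 36.8 FPKM (3.45 to 70.1) induced and 28.6 FPKM (5.04 to 52.1) uninduced. GUSB, the beta-glucuronidase often used as a housekeeping reference, was at 29.5 FPKM (9.47 to 49.6) induced and 26.1 FPKM (7.46 to 44.8) uninduced. GLA, the alpha-galactosidase deficient in Fabry disease, was the only one lower induced, at 27.1 FPKM (0 to 67.2), against 41.3 FPKM (0 to 100.3) uninduced. The locus span of GLA is shared with RPL36A and HNRNPH2.

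All 6 genes of lipid handling had higher induced values, by 0.06 to 1.23 on the log2 scale, and 0 rose. PSAP, the precursor of the saposins that present sphingolipids to their hydrolases, was at 443 FPKM (interval 169 to 718) induced and 203 FPKM (92.0 to 313) uninduced. ASAH1, acid ceramidase, was at 80.2 FPKM (27.9 to 132) induced and 33.5 FPKM (5.90 to 61.1) uninduced. GM2A, the activator protein that serves HEXA, was at 37.2 FPKM (17.3 to 57.1) induced and 24.0 FPKM (10.1 to 37.9) uninduced. PSAP and ASAH1 were the 2 genes of this class past 2-fold.

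NPC1 and NPC2 act in sequence in the export of cholesterol, and the intervals of both overlapped. NPC1, the membrane partner, was at 22.4 FPKM (interval 1.41 to 43.4) induced and 11.7 FPKM (0.634 to 22.9) uninduced. NPC2, the soluble carrier, was at 110.1 FPKM (38.1 to 182) induced and 106 FPKM (32.4 to 179) uninduced. LIPA, lysosomal acid lipase, was at 72.9 FPKM (0 to 250.6) induced and 51.7 FPKM (14.9 to 88.4) uninduced. The locus span of LIPA is shared with IFIT1, IFIT2 and IFIT3, interferon-induced genes whose differences were 4.32, 4.09 and 4.03; their part in the LIPA value was not tested.

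**Figure D4:**
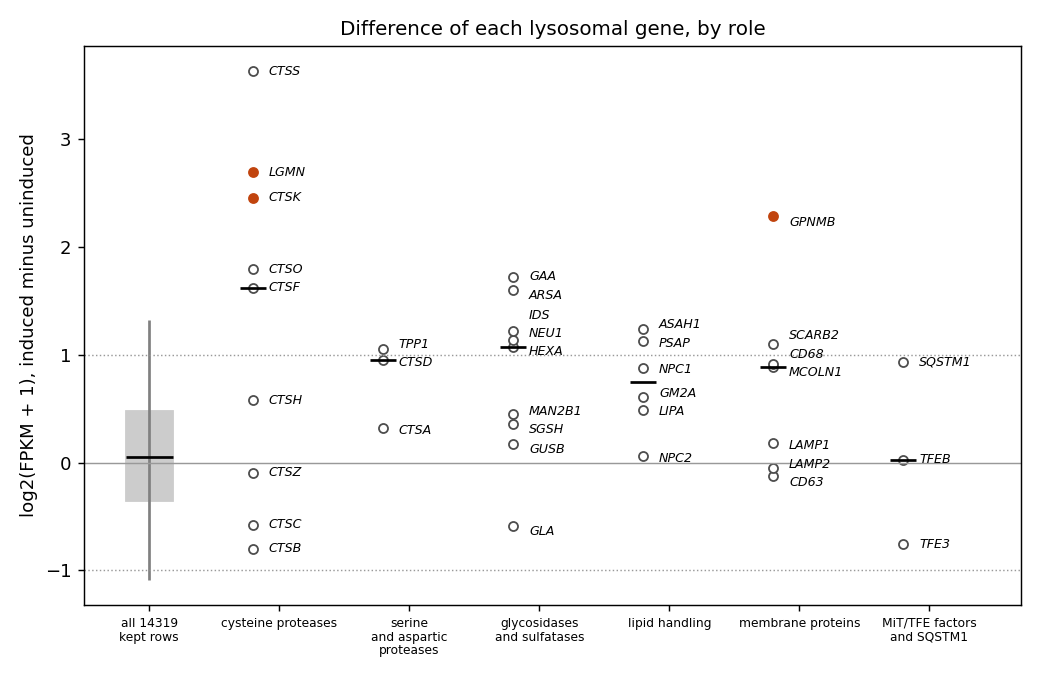
Log2(FPKM + 1), induced minus uninduced, of the 37 genes by role (filled red: intervals apart; open: overlapping; bars: class medians), beside all 14319 kept rows (box: 25th to 75th percentile, -0.36 to 0.47; line: 5th to 95th, -1.09 to 1.32). The class medians run from 0.02 for the MiT/TFE factors and SQSTM1 to 1.62 for the cysteine proteases. At 30 FPKM or more they run from -0.10 for 5 cysteine proteases to 1.07 for 7 glycosidases and sulfatases (not drawn).

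Among the 7 membrane proteins GPNMB alone rose, while the main structural glycoproteins differed little. GPNMB (ENSG00000136235; chromosome 7, 23275586 to 23314727, hg19), whose promoter is printed above, was at 84.4 FPKM (interval 35.8 to 133) induced and 16.6 FPKM (4.09 to 29.0) uninduced. The ratio was 5.10, or 1.23 between the nearest bounds. SCARB2, the receptor that carries glucocerebrosidase to lysosomes, was at 180.2 FPKM (67.8 to 293) induced and 83.6 FPKM (36.1 to 131) uninduced. MCOLN1, a calcium channel of the lysosomal membrane, was at 25.0 FPKM (0 to 53.1) induced and 13.1 FPKM (0 to 38.7) uninduced.

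LAMP1 and LAMP2, the most abundant glycoproteins of the lysosomal membrane, had nearly equal values in both columns. LAMP1 was at 179 FPKM (interval 80.2 to 277) induced and 157 FPKM (70.3 to 244) uninduced, and LAMP2 at 96.9 FPKM (41.1 to 153) induced and 101 FPKM (45.6 to 156) uninduced. CD63, a tetraspanin of late endosomes and exosomes, was the most abundant of the 37 in both columns, at 735 FPKM (320.3 to 1150) induced and 804 FPKM (368 to 1239) uninduced. The directions for LAMP2 and CD63 turned with the columns scaled to the same FPKM sum (0.14 and 0.07) and after quantile normalization (0.19 and 0.27).

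CD68, a mucin-like lysosomal protein used as a macrophage marker, was at 178 FPKM (interval 0 to 415) induced and 94.0 FPKM (0 to 299) uninduced. Its locus span holds 9 other kept rows, among them EIF4A1 at 272 FPKM induced and 572 FPKM uninduced. The 16 macrophage markers summed to 4.37 FPKM induced and 2.07 FPKM uninduced, led by CD14 (2.15 induced, 0.823 uninduced) and PTPRC (1.30 induced, 0.547 uninduced). AIF1, CD163, MRC1, MARCO, TYROBP, C1QA, C1QB and C1QC were listed at 0 in both columns. Of 8 osteoclast markers only ACP5 was above the filter (3.30 FPKM induced, 1.11 FPKM uninduced), CALCR, OCSTAMP and MMP9 were listed at 0 in both columns, and the list summed to 3.73 FPKM induced and 1.90 FPKM uninduced. Of 7 melanocyte markers MITF and PMEL (1.46 FPKM induced, 0.753 FPKM uninduced) were above the filter, SOX10 was listed at 0 in both columns, and the list summed to 5.33 FPKM induced and 9.44 FPKM uninduced.

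The transcription factors of the pathway did not rise at the RNA level. TFEB was at 9.15 FPKM (interval 0 to 18.4) induced and 8.98 FPKM (0.312 to 17.6) uninduced, and its difference of 0.02 turned to -0.13 after quantile normalization. TFE3 was at 32.8 FPKM (12.1 to 53.4) induced and 56.1 FPKM (24.9 to 87.4) uninduced, a difference of -0.76. Their activity is set largely by where the protein sits in the cell, which RNA levels do not show. SQSTM1, or p62, which delivers ubiquitin-tagged cargo to autophagosomes, was at 298 FPKM (0 to 637) induced and 155 FPKM (0 to 341) uninduced. The SQSTM1 span is shared with C5orf45, at 180.4 FPKM induced and 84.5 FPKM uninduced, and with MGAT4B and TBC1D9B. The log2 differences were 1.08 for C5orf45, 0.09 for MGAT4B and 0.15 for TBC1D9B.

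Of 19 genes listed for lysosomal nutrient sensing and the other MiT/TFE factors, 17 were kept, TFEC not among them. Of these 0 rose and 0 fell. A higher induced value was seen for 9 and a lower one for 8, beside 53.7% of all kept rows higher. The median was 0.18. For the 8 at 30 FPKM or more it was -0.28, with 2 higher and 6 lower. FLCN, folliculin, which with FNIP1 and FNIP2 acts on the Rag GTPases, was highest, at 24.8 FPKM (interval 0 to 83.0) induced and 8.10 FPKM (0 to 29.3) uninduced. RRAGB, a Rag GTPase, followed at 14.8 FPKM induced and 7.56 FPKM uninduced. MITF was lowest, at 3.66 FPKM (0 to 7.48) induced and 8.62 FPKM (1.31 to 15.9) uninduced, and RRAGA was at 69.3 FPKM induced and 94.7 FPKM uninduced.

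As a sum, the 37 transcripts amounted to 4771 FPKM induced and 3468 FPKM uninduced, or 0.988% of all FPKM induced and 0.627% uninduced. CD63 held 15.4% of the sum induced and 23.2% uninduced, PSAP 9.30% induced and 5.84% uninduced, and CTSK 9.01% induced and 2.24% uninduced. By level among the 37, CTSK stood 3rd induced and 14th uninduced, LGMN 10th induced and 25th uninduced, and CTSB 4th induced and 2nd uninduced. CTSB and CD63, the 2 most abundant uninduced, both had lower induced values. Without them the sum was 3704 FPKM induced and 2087 FPKM uninduced. Leaving them out raised the ratio of the sums from 1.38 to 1.77, and no abundant gene with a higher induced value was left out.

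Of 30 other lysosomal hydrolases listed, 28 were kept, 0 rose and 0 fell. By the looser criterion, an interval of the difference that leaves out 0, 1 rose, MANBA, beside 1.26% of all kept rows. The induced value was the higher one for 20 and the lower one for 8, beside 53.7% of all kept rows higher, and 5 were at least 2-fold higher and 0 lower, beside 9.2% and 6.03%. Their median was 0.62, and 0.33 for the 18 at 30 FPKM or more; the difference from the 37 genes was not tested. MANBA, the beta-mannosidase, was at 27.9 FPKM (interval 9.33 to 46.4) induced and 7.68 FPKM (0.122 to 15.2) uninduced, and IDUA, the iduronidase deficient in Hurler syndrome, at 17.9 FPKM induced and 6.31 FPKM uninduced. At the other end were GGH, which trims folate polyglutamates, at 29.2 FPKM induced and 58.4 FPKM uninduced, and AGA, aspartylglucosaminidase, at 48.9 FPKM induced and 69.7 FPKM uninduced. Of the other lysosomal membrane proteins 19 of 20 were kept and 17 had higher induced values, 3 of them at least 2-fold, with a median of 0.54 and 0 called. The 17 include SLC29A3, which passed the filter only through its induced value. At 30 FPKM or more 7 of 7 were higher, 2 of them at least 2-fold, beside 36.3% and 5.68% of all rows there. The median of those 7 was 0.65, beside 0.76 for the 28 of the 37 genes at that level. TMEM55A, a phosphoinositide phosphatase (52.9 FPKM induced, 23.1 FPKM uninduced), and LMBRD1, of cobalamin export (32.7 FPKM induced, 14.8 FPKM uninduced), led this list, and TPCN2, a cation channel (4.85 FPKM induced, 5.25 FPKM uninduced), and SLC36A1, an amino acid transporter (5.16 FPKM induced, 5.32 FPKM uninduced), were lowest.

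Genes of lysosomal acidification and of enzyme delivery had smaller medians, and 0 of them were called. All 17 V-ATPase genes, whose proton pump acidifies the lumen, were kept. Of these 14 had a higher induced value, beside 53.7% of all kept rows, and 2 were at least 2-fold higher, beside 9.2%. The median was 0.24. At 30 FPKM or more 12 of 15 were higher, with a median of 0.21, beside 36.3% and -0.19 for all rows at that level. ATP6AP1, an accessory subunit, was at 130.7 FPKM induced and 64.4 FPKM uninduced, and ATP6V0A2 at 19.7 FPKM induced and 9.35 FPKM uninduced. The lowest of them were ATP6V1D (79.3 FPKM induced, 101 FPKM uninduced) and ATP6V0D1 (63.7 FPKM induced, 66.2 FPKM uninduced). Of the 19 genes of mannose 6-phosphate tagging and lysosomal sorting, 11 were higher and 1 at least 2-fold, beside the same 53.7% and 9.2%. The 19 had a median of 0.11, and 0.02 for the 9 at 30 FPKM or more. They ran from VPS41 (59.6 FPKM induced, 28.6 FPKM uninduced) and VPS11 (26.1 FPKM induced, 16.3 FPKM uninduced), both of vesicle tethering, to GNPTAB, of the tagging enzyme (15.0 FPKM induced, 19.0 FPKM uninduced), and VPS29, of the retromer (64.3 FPKM induced, 99.8 FPKM uninduced). Of the 8 cystatins, which inhibit cysteine cathepsins, 3 were kept, with 0 called and a median of -0.20. CST1 passed the filter only through its uninduced value, which fixed its direction. The 2 at 30 FPKM or more, CST3 and CSTB, had a median of 0.28, with 1 higher and 1 lower. CST3, cystatin C, the main secreted one, was at 266 FPKM induced and 157 FPKM uninduced, CSTB at 40.7 FPKM induced and 47.0 FPKM uninduced, and CST1 at 0.688 FPKM induced and 2.43 FPKM uninduced.

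**Figure D5:**
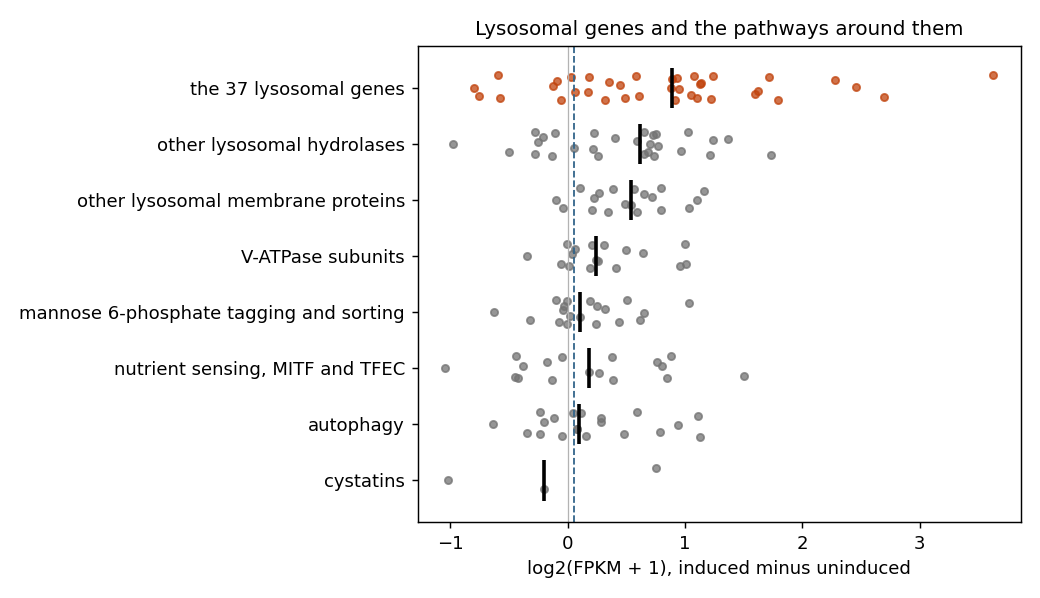
Log2(FPKM + 1), induced minus uninduced, of the kept genes in each list (points, spread vertically for legibility), with list medians (black bars) and the median of all kept rows (dashed blue line, 0.05). Medians run from 0.89 for the 37 lysosomal genes and 0.62 for other hydrolases to 0.10 for autophagy and -0.20 for the 3 cystatins. Of the cystatins, CST1 passed the filter only through its uninduced value.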

How the data were processed

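RNA-seq of 2 induced and 2 uninduced samples was used. RNA was column-purified and libraries were made without strand, per the labels' protocols, so reads of a gene and an antisense partner cannot be told apart. Per the submitters' processing notes, TopHat and hg19 were used for alignment; which version, and how transcripts were quantified and annotated, is not stated there. Values were deposited as FPKM with lower and upper bounds, per the file headers; whether a column combines both samples is not stated. Without counts in the table, sequencing depth is unknown. The 3 value columns of 1 further condition were left out. The table's locus starts count from 0 (22132 of 52511 gene lengths matched on that reading, 326 on the other) and are printed from 1. A locus span can cover neighbouring genes; those of 16 of the 37 genes overlap another kept row, and a symbol's row with the highest mean was used.

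Rows at 1 FPKM or more in either column were kept, and the pseudocount was 1. The planned fallback for values per sample, limma, did not apply with 1 value per group, so non-overlap of deposited intervals was the criterion; 3 kept rows with malformed bounds were never called. The code was tested on simulated data. Members and lists were chosen with earlier results of these data known. Every member is named; of each other list, the 2 highest and 2 lowest differences; of marker lists, up to 4 genes by level. Further genes (GLB1, CTSL, SLC29A3, locus neighbours, markers at 0) were chosen after their values were seen. Software: Python 3.11.15, numpy 2.4.6, pandas 2.3.3, matplotlib 3.10.9.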

Additional observations from a re-analysis of the deposited data

How the results depend on the processing

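CTSK, LGMN and GPNMB rose, and 0 of the genes fell, under each change of scale. The columns were scaled to the same FPKM sum, shifted to a median of 0 or quantile normalized (36 genes). Scaling to the same sum raised the induced column, so it could not undo a rise. The shift multiplied the induced column by 0.959, too little to undo nearest-bound ratios of 1.23 or more. With FPKM summed over all rows of a symbol the calls were the same, but CTSK, LGMN and GPNMB have 1 row each and could not change. By the interval of the difference 5 rose and 0 fell. That looser criterion calls again every gene whose intervals lie apart. Pseudocounts and filters cannot alter these calls either. The number at least 2-fold higher was 20 with the same sum (12.4% of all rows kept there), 18 after quantile normalization (7.07%), 14 with the columns shifted (8.27%), 14 with a pseudocount of 5 (3.55%) and 16 with a pseudocount of 0.1 (13.8%). At a 1.5-fold threshold 21 were higher and 3 lower, beside 20.3% and 15.3% of all kept rows. The median difference, 0.89 as reported, was 1.08 with the same sum, which moved the median of all kept rows to 0.24. It was 0.97 after quantile normalization, 0.83 with the columns shifted, 0.90 with a mean of at least 5 FPKM, 0.93 with a pseudocount of 0.1 and 0.73 with a pseudocount of 5. In 2 alternatives chosen after the data had been seen it was 1.13 for the 21 genes sharing no locus span and 0.91 for the 28 with both lower bounds above 0; 13 genes were at least 2-fold higher in each.

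Of 417 values of single genes under these alternatives 9, from 5 genes, changed direction, each where the columns were scaled, shifted or quantile normalized. Most of the 417 could not change: thresholds, call criteria, filters, subsets of genes and pseudocounts leave a direction as it is. With the same sum CD63 was at 0.069, CTSZ at 0.10 and LAMP2 at 0.14. After quantile normalization CD63 was at 0.27, CTSZ at 0.14, LAMP2 at 0.19 and TFEB at -0.13. With the columns shifted NPC2 was at -0.00081 and TFEB at -0.029. No paired analysis was possible because each group has a single deposited column; leaving out a replicate was not run for the same reason. Overlap of intervals this wide does not show that a gene stayed the same.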

Other observations

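All 20 autophagy genes listed were kept, 0 rose and 0 fell. The induced value was the higher one for 13 and the lower one for 7, beside 53.7% of all kept rows higher. Of the 20, 2 were at least 2-fold higher and 0 at least 2-fold lower, beside 9.2% and 6.03%. The median log2 difference was 0.10, beside 0.05 for all kept rows. For the 15 at 30 FPKM or more it was 0.08, with 9 higher, beside -0.19 and 36.3% for all rows at that level. OPTN, optineurin, a cargo receptor like SQSTM1, was at 113 FPKM induced and 51.2 FPKM uninduced, and MAP1LC3A, a membrane-bound mark of autophagosomes, at 45.5 FPKM induced and 20.5 FPKM uninduced. ATG7, the enzyme that starts the conjugation of such proteins, was at 24.9 FPKM induced and 39.4 FPKM uninduced, and BECN1, of the initiating lipid kinase complex, at 62.3 FPKM induced and 79.4 FPKM uninduced. Both ends of the list had overlapping intervals.

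The E-box CACGTG was present in the 250 bases before the start of 1 of 18 autophagy genes with a promoter entry, 4 of 23 other lysosomal hydrolases, 3 of 15 other membrane proteins, 3 of 12 V-ATPase genes, 5 of 15 genes of tagging and sorting and 6 of 17 of nutrient sensing.

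Of the 8 hepatocyte markers, 3 were above the filter. APOA1, an apolipoprotein of liver and gut, was at 1.21 FPKM induced and 0.102 FPKM uninduced, SERPINA1 at 1.29 FPKM induced and 0.694 FPKM uninduced, and AFP at 0.318 FPKM induced and 3.34 FPKM uninduced; TTR, APOB and HNF4A were listed at 0 in both columns.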
